A study of Mus musculus with 12 samples.

Results

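Ficolin knockout (KO) mice and wildtype (WT) mice were compared in the spleen 6 h after an intraperitoneal challenge with lipopolysaccharide (LPS) from Escherichia coli at 10 mg/kg. The comparison rests on 6 of the 12 arrays in the series, namely 3 of LPS challenged ficolin KO mice and 3 of LPS challenged WT mice, chosen by the genotype and treatment in their labels. Arrays of naive, untreated mice, 3 of ficolin KO and 3 of WT, gave the same genotype comparison without LPS. All mice were C57BL/6 females with a labelled age of 10 weeks. The ficolin KO mice were constitutively deficient in both ficolin-A (Fcna) and ficolin-B (Fcnb), and KO and WT mice were bred as separate homozygous lines derived from heterozygous crosses. Total RNA of whole spleen was hybridized, 1 array per mouse, and 22180 genes were compared on the log2 scale.

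Ficolins are soluble pattern recognition molecules of the innate immune system. Like mannose-binding lectin and the collectins, they bind sugars and acetylated groups on microbes and dying cells, and they activate complement through associated serine proteases, which is the lectin pathway. LPS, the glycolipid of the outer membrane of Gram-negative bacteria, is sensed by CD14, MD-2 and TLR4 on myeloid cells. In the spleen it induces cytokines, chemokines and interferon-stimulated genes within hours. The comparison asks whether the splenic response to LPS depends on the ficolins.

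Among genes with a symbol, deleted Fcna had the lowest adjusted p. Fcna, which macrophages of mouse liver and spleen express, had log2 values of 4.36, 4.34 and 4.45 in LPS challenged ficolin KO mice, against 8.12, 7.92 and 8.21 in LPS challenged WT mice. All arrays of ficolin KO mice lay close to the array medians (4.17 to 4.27) and far below every WT array. The log2 fold-change, KO over WT here and throughout, was -3.70 with an SE of 0.19 (limma adjusted p = 2.15e-07), a fold-change of 0.0769. Fcnb, whose product is made by bone marrow neutrophil and monocyte precursors, had 3.49, 3.30 and 3.53 in ficolin KO mice, against 3.26, 3.62 and 3.50 in WT mice, so its deletion could not be seen at this level. The files carry no detection calls, and whether values below the array medians stand above background was not tested. The other measured genes of the lectin pathway were not called. Mbl1 and Mbl2, the mannose-binding lectins that the liver makes, averaged 3.24 and 3.11 in LPS challenged ficolin KO mice, against 3.21 and 3.38 in LPS challenged WT mice, and the protease gene Masp1 averaged 3.05 in ficolin KO mice, against 3.14 in WT mice, all below the array medians. Colec12, a scavenger receptor of the collectin family, was the only bright one, and averaged 6.90 in ficolin KO mice, against 6.71 in WT mice (0.20, SE 0.14).

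Genes that mark spleen were bright in both genotypes. Cd79a of the B cell receptor lay between 9.38 and 9.67 on the 6 arrays, and Cxcl13, a chemokine of the white pulp follicles, between 11.07 and 11.39. Across genes, which are not independent replicates, 2 LPS arrays of 1 genotype had correlations of 0.989 to 0.992 (6 pairs) and 2 of different genotypes 0.984 to 0.991 (9 pairs).

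In all, 102 genes (0.460% of 22180) passed a fold-change over 1.5 with p under 0.05 by limma between LPS challenged ficolin KO and WT mice, which is what called means below. Of these, 33 (0.149%) were higher and 69 (0.311%) lower in ficolin KO mice. The lower genes were dominated by 28 genes of the exocrine pancreas and 6 of the Reg family of secreted lectins, and the other 35 ranged over many functions. The p is not adjusted, and 1150 genes (5.18%) had p under 0.05 with no fold criterion, of which 575 (2.59%) were lower in ficolin KO mice. After adjustment by the method of Benjamini and Hochberg, 3 genes (0.0135%) had p under 0.05, namely Fcna, the coenzyme Q gene Coq4 and the lectin gene Reg3a. The bulk of the transcriptome differed little. The absolute log2 fold-change had a median of 0.10, and the 95% confidence interval lay within 2-fold in either direction for 21906 genes (98.8%) and within 1.5-fold for 18943 (85.4%). Of the 102 genes, 78 had KO and WT arrays that did not overlap. This holds for 10.9% of all genes, but the criteria used these same arrays, so the count is a description. In all, 44 passed without each of the 12 arrays left out in turn. Outside the pancreas and Reg lists these 44 were Fcna, Coq4, Snord88a, Gm5150, Gm5409, Klk1b5, Aqp12, Plac9a, Zfp932, Klk1b27, Olfr584, Olfr1487 and Gm38396, and each other called gene outside both lists lost its call without at least 1 array.

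**Figure D1:**
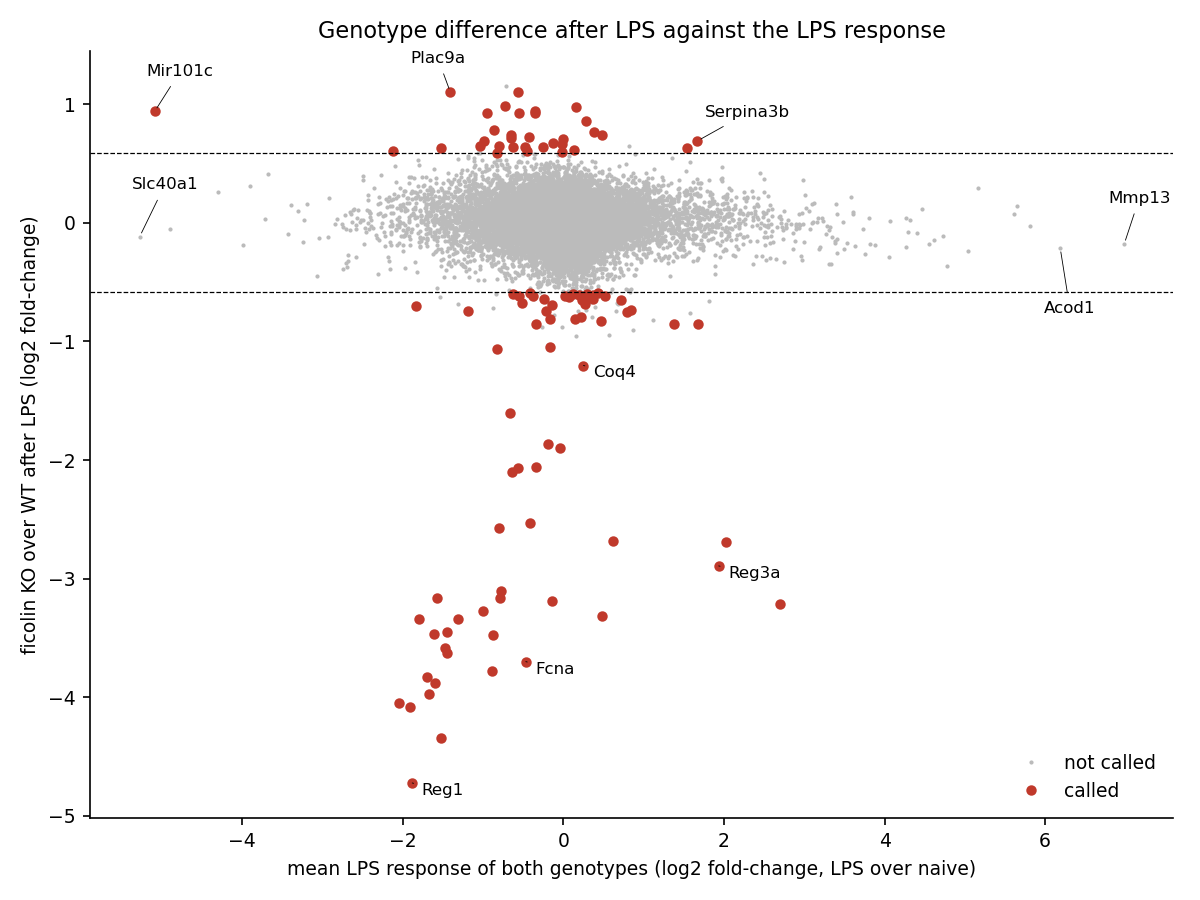
Log2 fold-change of each of the 22180 genes between LPS challenged ficolin KO and WT mice (vertical axis) against its mean log2 response to LPS in both genotypes (horizontal axis). Red points are the 102 called genes and dashed lines mark 1.5-fold, and nearly all genes with a strong response lie between the dashed lines.

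Coq4 had the lowest adjusted p after Fcna. It encodes a mitochondrial protein needed for the synthesis of coenzyme Q, the electron carrier of the respiratory chain. Its log2 values were 6.33, 6.19 and 6.24 in LPS challenged ficolin KO mice, against 7.61, 7.35 and 7.41 in LPS challenged WT mice. The groups lay more than 1 log2 unit apart with little spread, with a log2 fold-change of -1.20 and an SE of 0.12 (limma adjusted p = 3.84e-04). In naive spleens Coq4 was 6.61, 6.81 and 6.63 in ficolin KO mice, against 6.62, 6.55 and 6.41 in WT mice, which overlapped. Its mean response to LPS was -0.43 in ficolin KO and 0.93 in WT mice, and these responses differed by -1.36 with an SE of 0.16 (limma adjusted p = 0.00657). None of the other 11 genes of coenzyme Q synthesis had p under 0.05 by limma, and their log2 fold-changes lay between -0.23 for Coq10a and 0.19 for Pdss2.

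Besides Coq4, the called falls outside the pancreas and Reg lists included small RNA and predicted genes. Snord88a, a small nucleolar RNA, was 5.43, 5.51 and 5.47 in ficolin KO mice, against 6.76, 6.18 and 6.02 in WT mice after LPS, a log2 fold-change of -0.85 (SE 0.19). Gm5150, a predicted gene, was 4.54, 4.18 and 4.37 in ficolin KO mice, against 5.39, 4.96 and 4.98 in WT mice, a log2 fold-change of -0.75 (SE 0.15). Both separated every KO array from every WT array. Cdh1, which encodes the epithelial adhesion molecule E-cadherin, was 5.01, 5.06 and 4.97 in ficolin KO mice, against 5.44, 5.62 and 5.91 in WT mice, a log2 fold-change of -0.64. Its call was lost without WT LPS replicate 3 (-0.52) and with the probe sets of the gene averaged (-0.38). The Y RNA Rny1 (-0.85), Lysmd1 of the LysM domain family (-0.63) and Fthl17b, a ferritin heavy chain-like gene (-0.64), also fell without overlap of the arrays.

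The 33 higher genes had log2 fold-changes of 0.59 to 1.10, and none reached an adjusted p below 0.424 by limma. Plac9a, a small secreted protein first found in placenta, was 7.97, 8.05 and 7.43 in LPS challenged ficolin KO mice, against 7.16, 7.07 and 5.92 in LPS challenged WT mice. LPS lowered Plac9a in both genotypes, and the lowest array was WT LPS replicate 3. Its log2 fold-change was 1.10 (SE 0.27), and 0.48 once the exocrine pancreas mean entered the fit. Zfp932, a KRAB zinc finger gene, was dim, at 3.81, 3.89 and 3.53 in ficolin KO mice, against 2.70, 2.78 and 2.98 in WT mice, a log2 fold-change of 0.92 (SE 0.20). Serpina3b, a serine protease inhibitor that LPS raised in both genotypes, was 5.04, 5.13 and 5.51 in ficolin KO mice, against 4.48, 4.72 and 4.41 in WT mice (0.69). Naip5, which senses bacterial flagellin, was 6.04, 6.07 and 5.37 in ficolin KO mice, against 5.11, 5.35 and 5.10 in WT mice (0.64), a call lost without KO LPS replicate 1 or 2. Of the 102 called genes, 19 had means below 4.27 in both LPS groups, 9 of the higher genes among them.

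**Figure D2:**
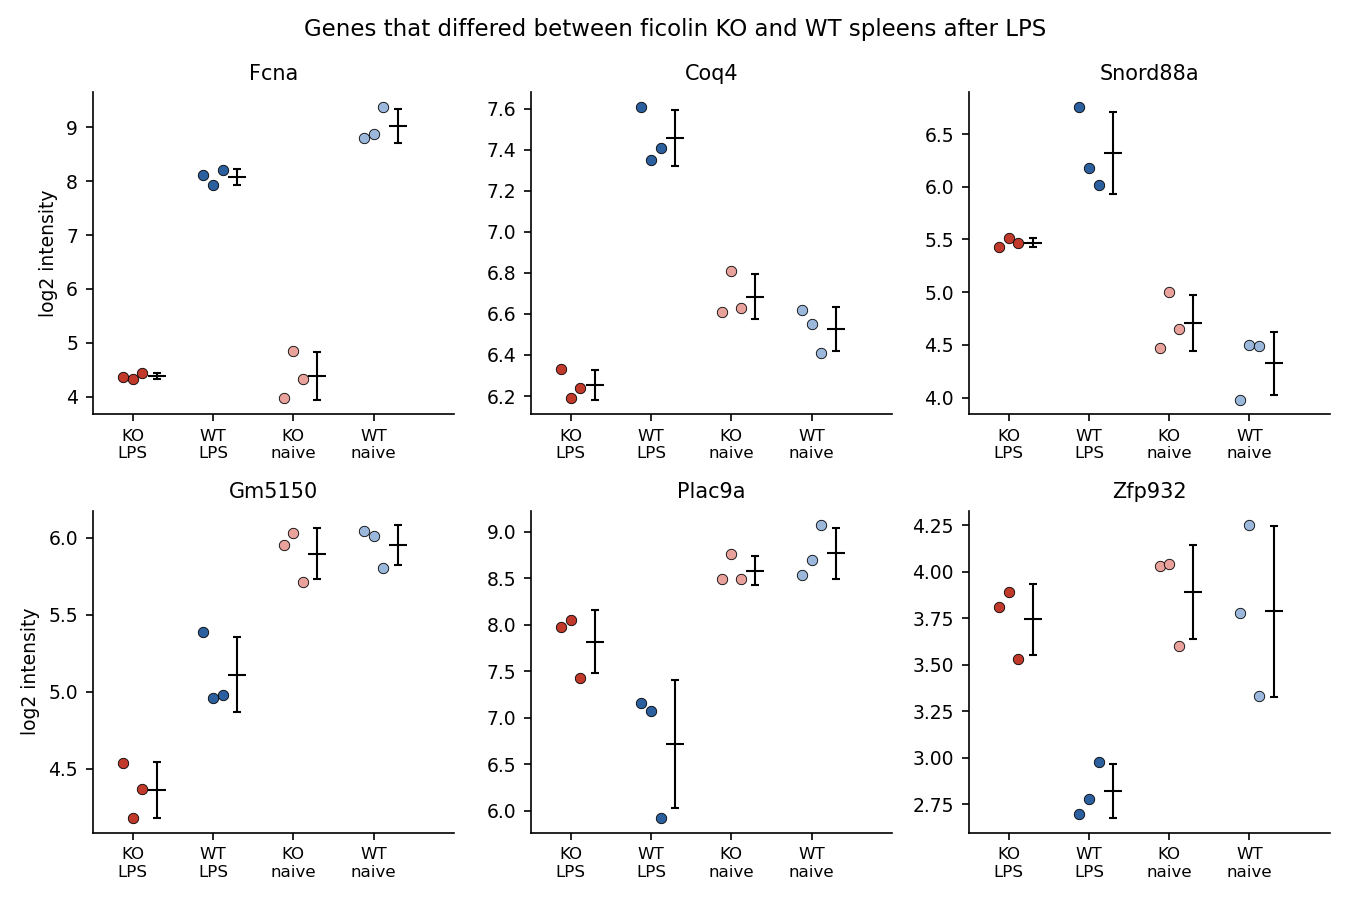
Log2 intensity of Fcna, Coq4, Snord88a, Gm5150, Plac9a and Zfp932 on each of the 12 arrays, for LPS challenged ficolin KO, LPS challenged WT, naive ficolin KO and naive WT mice from left to right. Dots are arrays and bars the mean with its SD (n = 3), and Fcna separates the genotypes with and without LPS whereas Coq4 separates them after LPS.

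Genes of the exocrine pancreas made up the largest set of called genes. Acinar cells of the pancreas secrete digestive enzymes, and these enzymes are not known as products of splenic cells, whereas the tail of the pancreas lies against the spleen. Of 34 genes listed for the exocrine pancreas, 28 were called lower in ficolin KO mice (0.311% of all genes were) and none higher, and 12 of the 34 by least squares. The list was drawn up with earlier results of these data known, and holds other genes besides enzymes, such as the trefoil factor Tff2. The count is therefore a description, and nothing is read from its excess over the share of all genes. The list median was -3.14, against a median of 0.00 over all genes. Pnliprp1, a pancreatic lipase-related protein, was 2.85, 6.43 and 8.77 in LPS challenged ficolin KO mice, against 9.36, 10.23 and 11.50 in LPS challenged WT mice. Cel, the bile salt-activated lipase, was 3.68, 6.39 and 8.35 in ficolin KO mice, against 9.09, 10.10 and 11.16 in WT mice. Prss2, an anionic trypsinogen, was 2.96, 4.38 and 5.86 in ficolin KO mice, against 6.32, 7.78 and 8.92 in WT mice. In each case the groups did not overlap, KO LPS replicate 1 was the lowest, and KO LPS replicate 3 came within 1 log2 unit of the lowest WT array. Their log2 fold-changes were -4.35 for Pnliprp1, -3.98 for Cel and -3.27 for Prss2.

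This graded pattern was shared by the set. KO LPS replicate 1 was the lowest of the 6 LPS arrays for 25 of the 28 genes, and the arrays did not overlap for 26. Of all genes, 4.94% were lower without overlap, and as the 28 were called on these arrays nothing is read from the count. The adjusted p-values were between 0.217 and 0.930 by limma. The mean over all 34 genes was 4.05, 5.44 and 6.56 on the LPS challenged ficolin KO arrays and 6.97, 7.79 and 8.58 on the LPS challenged WT arrays. Naive mice had 8.36, 7.04 and 7.53 (ficolin KO) and 6.45, 7.91 and 7.28 (WT), which overlapped. Of the 28 genes, 0 was called in naive mice, where 0.185% of all genes were. The acinar transcription factor genes Ptf1a (-0.01), Bhlha15 (0.13) and Rbpjl (-0.22) were not called. Of the 34 listed genes, 7 lay below the array medians. Whether these factor genes stood above background was not tested, and nothing is read from their values. Of 10 genes of the pancreatic islets, 0 was called by limma, with 1 at p under 0.05, and 0 by ordinary least squares, with 2. However, 7 of these 10 genes lay below the array medians. The islet list mean was 3.585 in LPS challenged ficolin KO mice and 3.631 in LPS challenged WT mice. In naive mice it was 3.594 (ficolin KO) and 3.547 (WT). At this level the list could hardly show a fall, and nothing is read from the 0. In bulk tissue, fewer cells of a type and less RNA per cell cannot be told apart. Whether the amount of pancreas attached to the dissected spleens differed was not tested. Outside the list, Gm5409, which lies among trypsinogen genes in the annotation order (-3.34), the kallikrein Klk1b5 (-1.90), the pancreatic aquaporin Aqp12 (-1.60) and Tmed6 (-1.05) fell too, each with KO LPS replicate 1 as its lowest array.

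The Reg genes encode small secreted C-type lectins of the pancreas and gut, and Reg3b and Reg3g bind bacteria. Of 7 measured, 6 were called lower in ficolin KO mice, and 4 by least squares, with a list median of -2.89. Of all 22180 genes, 0.311% were called lower by limma and 32 genes by least squares. Reg3a was 2.85, 3.32 and 3.71 in LPS challenged ficolin KO mice, against 5.66, 5.51 and 7.39 in LPS challenged WT mice, a difference of -2.89 with an SE of 0.36 (limma adjusted p = 0.00602). With the 6 LPS arrays alone its adjusted p was 0.252, and without KO LPS replicate 1 it was 0.0742, both from limma. Reg1 was 2.41, 5.95 and 7.98 in ficolin KO mice, against 9.09, 10.21 and 11.21 in WT mice, and Reg3b was 3.70, 4.54 and 6.73 in ficolin KO mice, against 7.31, 7.63 and 9.67 in WT mice. Their log2 fold-changes were -4.72 for Reg1 and -3.21 for Reg3b, and Reg3g (-2.69), Reg3d (-2.68) and Reg2 (-3.31) fell as well, without overlap of the arrays. KO LPS replicate 1 was the lowest array for all 6, as it was for most pancreas genes. Reg4 (0.14), a family member of the gut, was not called.

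Reg2 had opposite genotype differences with and without LPS. It was 2.99, 3.53 and 5.35 in LPS challenged ficolin KO mice, against 6.51, 7.09 and 8.21 in LPS challenged WT mice, but 6.88, 6.14 and 6.59 in naive ficolin KO mice and 3.87, 3.13 and 4.21 in naive WT mice. Neither pair of groups overlapped, and the log2 fold-change was -3.31 with LPS and 2.80 without. The responses to LPS differed by -6.11 (limma adjusted p = 0.00657). In naive mice Reg3g was 2.82, 2.87 and 2.71 in ficolin KO and 3.04, 3.08 and 2.75 in WT, near the floor of the arrays, and its mean response to LPS was 0.76 in ficolin KO and 3.29 in WT mice.

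**Figure D3:**
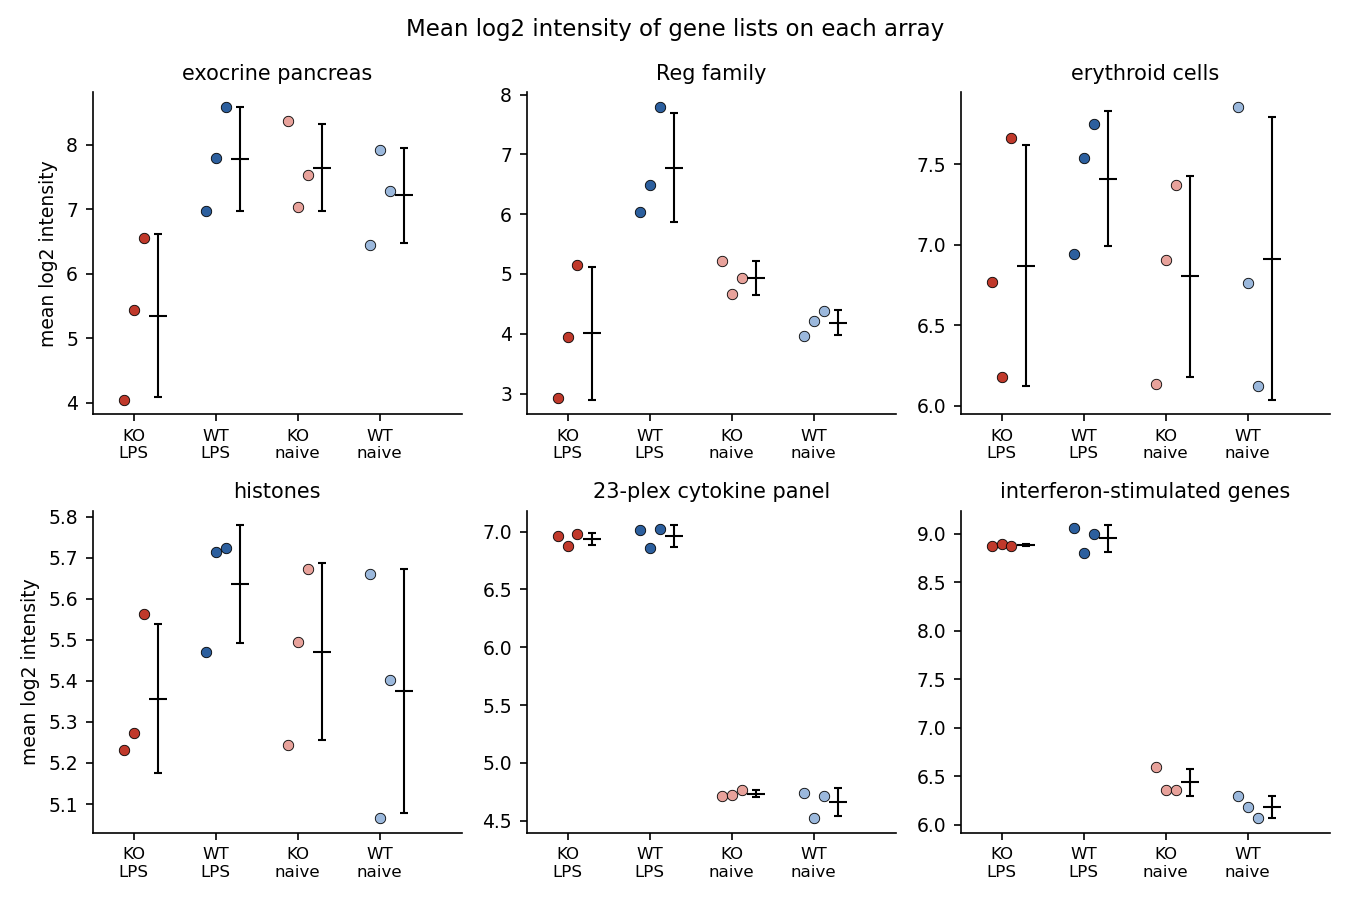
Mean log2 intensity of 6 gene lists on each array, for LPS challenged ficolin KO, LPS challenged WT, naive ficolin KO and naive WT mice from left to right, with dots for arrays and bars for the mean and its SD (n = 3). The exocrine pancreas and Reg lists spread widely among LPS challenged ficolin KO mice and lie below WT, whereas the LPS groups of the cytokine panel and of the interferon-stimulated genes overlap.

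Promoters of Prss2, Cel and Reg3b are shown as a description of called pancreas and Reg genes. In the pancreas, acinar genes are driven by the PTF1 complex, which binds an E-box (CACCTG) together with a TC-box, searched as TTTCCCA, and Reg genes are induced through STAT factors in response to cytokines. The STAT element searched was TTCCNNGAA. The windows of 300 bases around the gene start follow from RefSeq (GRCm38.p6), 1 line each, with matches on either strand in capitals.
Prss2 promoter, chr6:41521526-41521825 (+ strand): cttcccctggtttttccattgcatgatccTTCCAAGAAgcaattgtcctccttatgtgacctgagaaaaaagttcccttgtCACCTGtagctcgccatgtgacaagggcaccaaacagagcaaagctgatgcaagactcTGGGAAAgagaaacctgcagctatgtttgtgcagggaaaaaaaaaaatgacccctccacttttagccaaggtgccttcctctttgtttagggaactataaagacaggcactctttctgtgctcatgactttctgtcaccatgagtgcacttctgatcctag
Cel promoter, chr2:28563354-28563653 (- strand): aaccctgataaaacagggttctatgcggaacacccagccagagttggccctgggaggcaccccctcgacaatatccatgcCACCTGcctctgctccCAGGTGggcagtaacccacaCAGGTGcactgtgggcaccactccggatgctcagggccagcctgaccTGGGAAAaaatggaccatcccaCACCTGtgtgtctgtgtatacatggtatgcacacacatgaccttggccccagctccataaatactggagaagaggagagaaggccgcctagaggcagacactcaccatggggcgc
Reg3b promoter, chr6:78370635-78370934 (+ strand): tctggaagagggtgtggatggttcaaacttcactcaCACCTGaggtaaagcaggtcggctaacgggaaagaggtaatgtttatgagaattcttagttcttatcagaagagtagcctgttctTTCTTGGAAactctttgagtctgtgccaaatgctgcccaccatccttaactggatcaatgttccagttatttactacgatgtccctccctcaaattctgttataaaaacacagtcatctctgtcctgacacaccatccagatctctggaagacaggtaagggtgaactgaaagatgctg
Promoter entries were counted, and a gene can have more than 1. CACCTG occurred in 14 of the 22 entries of called pancreas genes (63.6%) and in 4 of the 6 entries of called Reg genes (66.7%). It occurred in 20.2% of all promoters of this length. TTTCCCA occurred in 4 of 22 (18.2%) and 3 of 6, against 8.06% of all. TTCCNNGAA occurred in 1 of 22 (4.55%) and 2 of 6 (33.3%), against 4.81% of all. The matches describe the sequence and do not show that a factor was bound. Whether they bear on the differences between genotypes was not tested.

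With all LPS arrays, the cytokine genes did not differ between genotypes beyond the criteria. Of 23 cytokine and chemokine genes of a serum panel, 0 was called by limma or by least squares, with 0 at p under 0.05 in either, where 0.460% of all genes were called. Without WT LPS replicate 2, 1 of the 23 was called lower in ficolin KO mice by limma. Il6, a pyrogenic cytokine of the acute phase, was 8.96, 8.38 and 9.34 in LPS challenged ficolin KO mice, against 8.98, 8.22 and 9.26 in LPS challenged WT mice. Tnf, the early macrophage cytokine, was 10.07, 9.98 and 10.32 in ficolin KO mice, against 10.21, 10.31 and 10.19 in WT mice. The arrays of both genotypes intermingled, and the log2 fold-changes were 0.07 (95% confidence interval -0.50 to 0.65) for Il6 and -0.11 (-0.48 to 0.25) for Tnf. The widest differences of the panel were -0.36 for Ccl2, which recruits monocytes (-0.79 to 0.07), and 0.29 for Ifng, the activator of macrophages (-0.23 to 0.82). Ccl2 was 9.33, 9.05 and 9.70 in ficolin KO mice against 9.94, 9.26 and 9.96 in WT mice, and Ifng 8.97, 7.95 and 8.59 in ficolin KO mice, against 8.20, 7.80 and 8.63 in WT mice. The intervals of all 23 genes lay within 2-fold, and those of 16 within 1.5-fold. LPS raised 15 of the 23, by the mean of both genotypes.

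**Figure D4:**
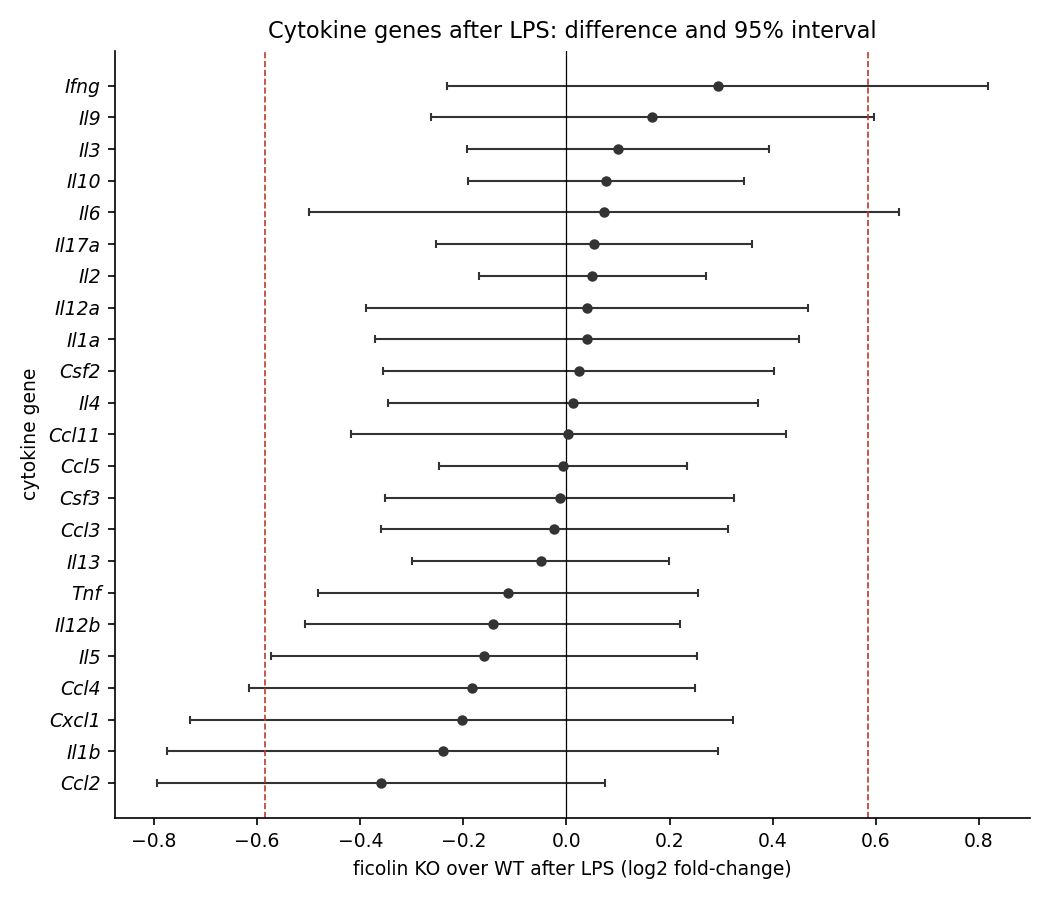
Log2 fold-change between LPS challenged ficolin KO and WT mice of the 23 cytokine and chemokine genes, with 95% confidence intervals from limma. Dashed lines mark 1.5-fold, and every interval spans 0.

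Lists of the pathways upstream and downstream held few called genes, where 0.460% of all genes were called. Of 21 genes of LPS sensing and signalling, 0 was called by either tool, with 0 by limma and 3 by least squares at p under 0.05. They included Tlr4, the LPS receptor (-0.03), its coreceptor Cd14 (0.05) and the adaptor Myd88 (-0.22). By both tools 0 was called of 24 NF-kB targets and feedback genes (1 at p under 0.05 by each), of 20 further chemokines (0 by each), of 17 acute phase genes (1 by limma, 0 by least squares) and of 29 complement genes outside the lectin pathway (0 by limma, 1 by least squares). Of 27 interferon-stimulated genes, 25 were raised by LPS, and 0 was called after LPS by either tool. Usp18, a brake on interferon signalling, was 9.96, 10.10 and 10.21 in ficolin KO mice, against 10.55, 10.20 and 10.55 in WT mice (-0.34), the only one at p under 0.05 by limma, against 1 by least squares. In naive mice 3 of these 27 genes were called, where 0.185% of all genes were. The list median was 0.23 in naive mice and -0.02 after LPS. The genotypes' responses differed at p under 0.05 for 7 of 27, against 3.53% of all genes, and for 0 after adjustment by limma. Of the 14 inflammasome genes, 1 was called, Naip5.

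The genes that responded to LPS can be counted directly. LPS raised 901 genes (4.06%) and lowered 1016 (4.58%) by more than 2-fold with an adjusted p under 0.05, over the mean of both genotypes. Of the raised genes 7 (0.777%) were called between genotypes, with Ifit3b and Serpina3b higher and Pln, Reg3a, Reg3b, Reg3g and Snord88a lower in ficolin KO mice. Of the lowered genes 14 (1.38%) were called, 9 of them lower in ficolin KO mice, 7 of the 14 outside the pancreas and Reg lists. Of the 20263 genes neither raised nor lowered, 81 (0.4%) were called. The mean of both genotypes also moves where only 1 genotype responds, as for the pancreas list (median response -2.57 in ficolin KO and 0.55 in WT mice). A genotype difference can thus place a gene among the responders, and nothing is read from the higher shares. Outside the pancreas and Reg lists 4 raised, 7 lowered and 57 other genes were called. The interval of the difference was within 2-fold for 886 raised and 973 lowered genes. The median response of raised genes was 1.493 in ficolin KO and 1.497 in WT mice, and of lowered genes -1.333 in ficolin KO and -1.383 in WT mice. Among the strongest responders, Mmp13, a collagenase, was 10.68, 10.41 and 10.41 in LPS challenged ficolin KO mice, against 10.96, 10.56 and 10.52 in LPS challenged WT mice (-0.18), and the iron exporter Slc40a1 was 5.38, 5.20 and 5.17 in ficolin KO mice, against 5.27, 5.34 and 5.49 in WT mice (-0.12). Acod1, which makes itaconate (-0.21), the chemokine Ccl3 (-0.02) and Ptgs2, the inducible cyclooxygenase (-0.24), were not called either.

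Cell type lists showed few called genes, where 0.460% of all genes were called. Of 16 B cell genes 1 was called, Fcamr, an Fc receptor for IgA and IgM, at 5.42, 5.50 and 5.39 in ficolin KO mice against 4.98, 4.75 and 4.73 in WT mice (0.62). By both tools 0 was called of 15 T cell genes (1 at p under 0.05 by limma, 0 by least squares), 12 NK cell genes, 19 neutrophil genes and 13 red pulp macrophage genes (0 by each). The intervals of the neutrophil genes were wide, with 3 of 19 within 1.5-fold. Erythroid genes lay lower as a list, and 1 passed the criteria. All 20 were below 0, where 49.1% of all genes were, with a median of -0.58, and the called gene was Tal1, a transcription factor of red cell precursors (-0.60). The mean of the list was 6.77, 6.18 and 7.67 in LPS challenged ficolin KO mice, against 6.94, 7.54 and 7.75 in LPS challenged WT mice, and without KO LPS replicate 2, the lowest array, the median was -0.19 with 0 called. Without KO LPS replicate 3, the highest KO array, it was -0.98 with 10 of 20 called lower. Of 46 histone genes 5 were called lower, as 0.311% of all genes were, and 36 lay below 0 (median -0.27). The 5 became 1 without WT LPS replicate 2 or KO LPS replicate 1, 2 without WT LPS replicate 3 or KO LPS replicate 2, 10 without WT LPS replicate 1 or KO LPS replicate 3, and 0 by least squares (1 at p under 0.05). Among the 5, H2ac15 was 2.67, 2.85 and 3.50 in ficolin KO mice, against 3.41, 3.71 and 4.38 in WT mice. Gzmk, a granzyme of T cells, was higher at 5.24, 4.93 and 5.60 in ficolin KO mice, against 4.49, 4.75 and 4.73 in WT mice (0.60). Igkj1, a joining segment of the kappa light chain, was 10.34, 9.87 and 10.69 in ficolin KO mice, against 9.86, 8.87 and 9.22 in WT mice (0.98), and Ighv1-54, a heavy chain variable gene, differed by 1.10, with KO LPS replicate 3 the highest.

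Genes of cell division and antigen presentation held 1 called gene, where 0.460% of all genes were called. Of 23 mitosis genes 1 was called, Cep55, a protein of the midbody in cytokinesis, at 4.52, 4.15 and 4.22 in ficolin KO mice, against 3.41, 3.97 and 3.60 in WT mice (0.64). The brighter mitosis genes Mki67 (-0.26), Plk1 (-0.18) and Ccna2 (-0.44) were not called. Of 18 DNA replication genes 0 was called by either tool, with 1 at p under 0.05 by each, such as the sliding clamp Pcna (0.10). Of 10 genes of MHC class II presentation 0 was called by either tool, with 0 at p under 0.05, and all 10 intervals lay within 1.5-fold, such as those of H2-Aa (0.10) and H2-Ab1 (0.13). Of 12 genes of MHC class I presentation 0 was called by either tool, with 0 at p under 0.05 by limma and 2 by least squares.

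Some called genes outside these lists were spread over other functions. Prg4, the lubricin of joints and other surfaces, was 6.47, 6.78 and 5.27 in ficolin KO mice, against 4.85, 5.99 and 5.10 in WT mice, groups that overlapped (0.86). Klk1b27, a kallikrein, was dim at 4.16, 3.19 and 4.23 in ficolin KO mice, against 3.02, 2.38 and 3.39 in WT mice (0.93), and so differed in the opposite direction to Klk1b5. Pln, the regulator of the calcium pump of muscle, was 4.51, 4.61 and 6.27 in ficolin KO mice, against 5.48, 5.67 and 6.79 in WT mice (-0.85), and LPS raised it. Gnpda1, an enzyme of glucosamine metabolism that LPS lowered, was 5.62, 4.78 and 6.06 in ficolin KO mice, against 5.91, 6.25 and 6.40 in WT mice (-0.70).

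Small RNA genes held scattered calls, where 0.149% of all genes were called higher and 0.311% lower. Of 483 microRNA genes 3 were called higher and 1 lower in ficolin KO mice, and 371 lay below the array medians. Mir101c was 3.31, 3.49 and 3.26 in LPS challenged ficolin KO mice, against 2.32, 2.83 and 2.09 in LPS challenged WT mice (0.94), and 8.33, 8.63 and 6.96 in ficolin KO mice, against 8.43, 7.18 and 8.31 in WT mice, when naive. LPS lowered it in both genotypes, and the difference was at the low end of the scale. Mir186 was 3.73, 5.13 and 4.48 in ficolin KO mice, against 3.93, 3.15 and 3.33 in WT mice (0.98), and Mir103-2 differed by 0.64 with an SE of 0.26, while Mir328 was lower (-0.59). The array names the gene and not the arm. The mature arms of the 3 higher genes follow from RefSeq (GRCm38.p6), with bases 2 to 8, the seed that pairs with targets, in capitals.
mmu-miR-101c, chr9:3038680-3038698 (- strand): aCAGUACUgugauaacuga
mmu-miR-186-5p, chr3:157544285-157544306 (+ strand): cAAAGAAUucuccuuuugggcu
mmu-miR-186-3p, chr3:157544324-157544345 (+ strand): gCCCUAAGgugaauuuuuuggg
mmu-miR-103-2-5p, chr2:131288066-131288088 (+ strand): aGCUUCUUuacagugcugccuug
mmu-miR-103-3p, chr2:131288103-131288125 (+ strand): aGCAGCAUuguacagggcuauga
No seed is shared among these arms. Of 78 small nucleolar RNA genes 2 were lower, Snord88a and Snord13, and 54 were below 0. Of 1105 olfactory receptor genes 3 were called higher and 1 lower (0.460% of all genes were called either way), and 1074 lay below the array medians. The called ones included Olfr584 at 4.80, 4.14 and 4.81 in ficolin KO mice, against 3.45, 3.76 and 3.71 in WT mice (0.94). Of 398 zinc finger genes 5 were called higher and 0 lower, against 0.149% and 0.311% of all genes, and the 5 became 3 by least squares, 2 with dim genes left out and 8 without WT LPS replicate 1. Among the 5 were Zfp960 at 5.45, 4.69 and 6.14 in ficolin KO mice, against 4.44, 4.60 and 4.46 in WT mice (0.93) and Zfp708 (0.71). Gm38396 (0.78) stands close to Zfp960 in the annotation order. Of 67 ribosomal protein genes, Rps15 (0.74) and Rps23 (0.67) were higher.

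The deleted genes lie in order along the annotation, with 59 measured genes between Fcna and Fcnb. Among the 50 genes on each side of Fcna, 0 was called and 1 had p under 0.05. Among the 50 on each side of Fcnb, 3 were called, namely Cel, 6530402F18Rik and Coq4, and 13 of 100 had p under 0.05, against 5.19% of 21994 placed genes. Between Fcnb and Coq4 lie 25 measured genes. The 6530402F18Rik transcript lay between 4.29 and 4.53 in ficolin KO mice and between 4.81 and 5.21 in WT mice (-0.61). In naive mice 4 genes near each ficolin gene had p under 0.05, against 2.86% of placed genes.

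The same genotype comparison was made in naive mice. With the same criteria 41 genes (0.185%) were called, 1 of them after adjustment (0.00451%). That count was 62 to 110 without any 1 of the 6 naive arrays, and without WT naive replicate 1 it was 110 in naive mice, against 109 after LPS. Of the 102 genes, 4 were among the 41, namely Fcna, H2ac15, Reg2 and Reg3d. Of these 4, H2ac15, Reg2 and Reg3d were higher in naive ficolin KO mice and lower after LPS. Of the 102 genes, 41 had the same sign in naive mice, and for 70 the responses differed at p under 0.05 (3.53% of all genes). The difference of responses holds the LPS difference that chose the genes, so the 70 are a description. After adjustment 2 remained (0.00902%), Coq4 and Reg2. The median difference of the 28 pancreas genes was -3.23 after LPS and 0.52 in naive mice, and that of the 33 higher genes was 0.71 and 0.02.

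**Figure D5:**
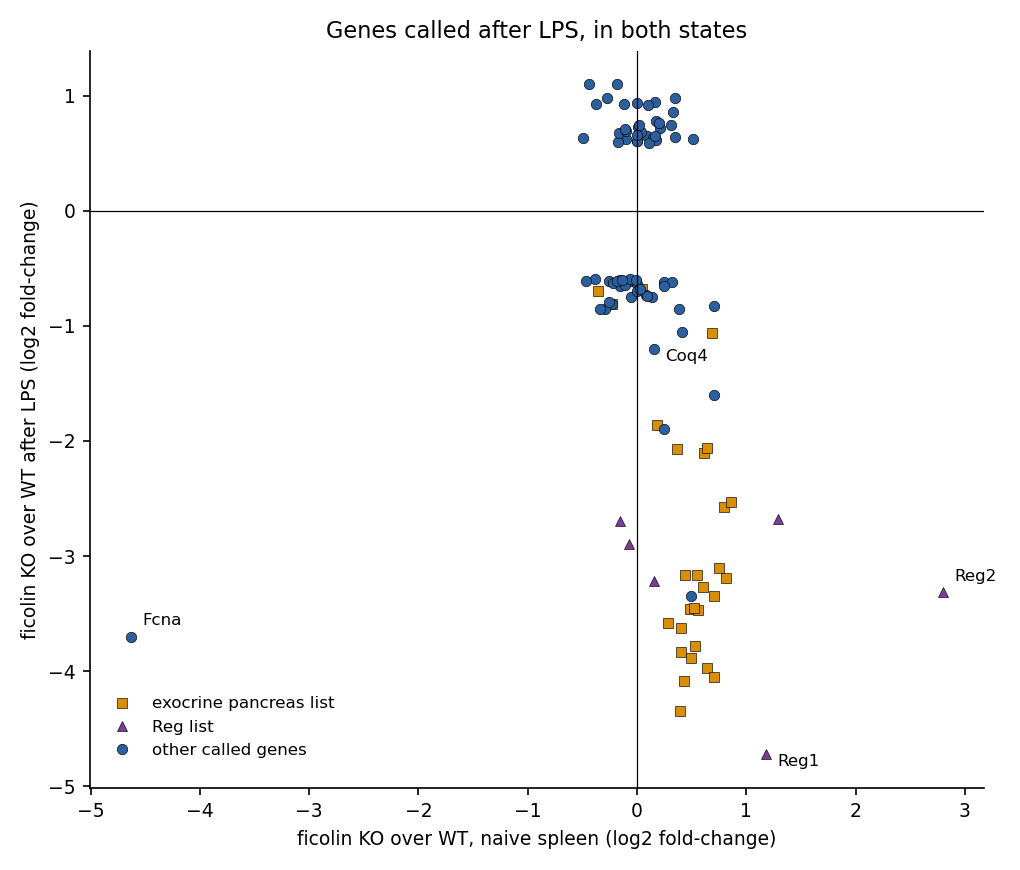
Log2 fold-change of the 102 called genes between ficolin KO and WT mice after LPS (vertical axis) against that in naive mice (horizontal axis). Squares are exocrine pancreas genes, triangles Reg genes and circles the others, and the 28 pancreas genes, with a median of -3.23 on the vertical axis, lie mostly above 0 on the horizontal one (median 0.52).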

How the data were processed

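Affymetrix Mouse Gene 2.0 ST arrays held whole spleen RNA of 12 mice, 3 per group. Values were deposited on the log2 scale, after the authors had applied quantile normalization and RMA. The genome build behind the probe sets is not given in the sources used here. One row per gene was used, from probe sets with exactly 1 gene symbol, taking the row of highest mean over the 12 arrays, with no filter on dim genes. Limma 3.58.1 in R 4.3.3 was fitted to all 12 arrays (group means, 8 residual and 6.7 prior degrees of freedom), with Benjamini-Hochberg adjustment over 22180 genes. Genotypes were compared after LPS and in naive mice, and the responses with each other. The median SE of a log2 fold-change was 0.14, and the number of arrays limits the precision. The labels call the arrays separate mice. Named genes were those with an adjusted p under 0.05, the 15 largest rises and falls without overlap outside the pancreas and Reg lists, the lectin pathway, the cytokine panel, up to 4 members of each list, called genes near Fcna and Fcnb and the 10 strongest responders in each direction. Other names were chosen after their values were seen. The members and lists were chosen with earlier results of these data known. The fit was tested on simulated data. Alternatives were other variance models, filters, scalings and samples, a covariate, and each array left out.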

Additional observations from a re-analysis of the deposited data

Results flagged for a closer look

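The difference between genotypes differed with and without LPS for 2 genes. For Coq4 the responses to LPS differed by -1.36 (adjusted p = 0.00657 from limma), with every LPS challenged ficolin KO array below every LPS challenged WT array and the naive arrays overlapping. For Reg2 they differed by -6.11 (adjusted p = 0.00657 from limma), with ficolin KO below WT after LPS and above it in naive mice.

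Probe sets with no gene symbol or with several entered no comparison above. Of 16004 without a symbol, 425 (2.66%) passed the criteria for called genes, 257 higher and 168 lower in ficolin KO mice after LPS. Among probe sets with 1 symbol, 93 of 23521 (0.395%) did, and among those with several, 22 of 1820 (1.21%). With no fold criterion the gap was narrower, as 972 without a symbol and 996 with 1 symbol had p under 0.05 by limma. After adjustment over all probe sets, 3 without a symbol had p under 0.05 between LPS challenged ficolin KO and WT mice by limma. Probe set 17549150 had log2 values of 8.86, 9.25 and 8.93 in ficolin KO mice, against 4.28, 4.74 and 4.41 in WT mice, a difference of 4.54 after LPS and 4.16 in naive mice. Probe set 17549062 had 8.64, 8.80 and 8.79 in ficolin KO mice, against 4.92, 4.85 and 4.51 in WT mice, a difference of 3.98 after LPS and 3.75 in naive mice. Probe set 17207063 had 4.05, 4.40 and 4.04 in ficolin KO mice, against 5.09, 5.27 and 5.49 in WT mice, a difference of -1.12 after LPS (limma adjusted p = 0.0365) and -0.15 in naive mice.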

How the results depend on the processing

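Of 102 called genes, 44 passed without each of the 12 arrays and 21 under every other alternative that gave a value. Ordinary least squares on the 6 LPS arrays called 46 genes (14 higher, 32 lower, 10 LPS-responsive), 0 of them after adjustment, with 1308 at p under 0.05. A fold criterion of 2 gave 39 (2 higher, 37 lower) and no fold criterion 1150 (575 each way). With a covariate for the exocrine pancreas mean 477 were called (270 higher, 207 lower, 70 LPS-responsive), and 0 differed between the responses after adjustment (1022 at p under 0.05). Under that covariate the pancreas genes had a median of -0.003 with 18 of 34 below 0 and 1 called, and the Reg genes -1.05 with 3 called. The covariate is the mean of the 34 pancreas genes themselves, which holds their average difference near 0. Nothing is read from their values under it. Of the called genes named, the covariate turned the sign of Aqp12 (0.28), Cpb1 (0.30), Klk1b5 (0.18), Pnliprp1 (0.15) and Tmed6 (0.18). Without pancreas and Reg genes 36 were lower, 11 were LPS-responsive and 1 differed between responses. Trended and robust variances gave 10 LPS-responsive genes and 1 difference between responses, array weights 5 adjusted genes, and leaving out dim genes 18 higher and 20 in naive mice. The causes were not tested.

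Leaving out each array gave 99 to 208 called genes, 32 to 61 higher and 67 to 168 lower, 2 to 23 after adjustment, 16 to 41 LPS-responsive, 2 to 3 differing between responses and 40 to 110 in naive mice. The count was 208 without KO LPS replicate 3 (23 adjusted), 191 without WT LPS replicate 1 (5 adjusted) and 155 without KO LPS replicate 2. Where a group had 2 arrays, its spread was taken to be that of the other groups. Over the alternatives the adjusted p by limma or least squares was 1.21e-08 to 0.0510 for Fcna, 1.60e-04 to 0.648 for Coq4 and 1.66e-04 to 0.885 for Reg3a. Whether the replicate numbers pair the samples was not settled. Same-numbered KO and WT deviations after LPS had correlations of 0.156, -0.007 and 0.249, against -0.230 to 0.097 for differently numbered ones. In naive mice same-numbered ones had -0.196, -0.217 and -0.074, against -0.043 to 0.205. With the replicate block 102 genes were called and 6 passed after adjustment, 3 more than without it, and no other count in this paragraph moved past 1.5-fold.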
